A study of Mus musculus with 4 samples.

Results

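The inflammatory and interferon response genes examined here are 46 named genes out of 23444 gene symbols measured, chosen by name with no filter on expression, and all 46 have a row in every sample. They comprise 23 inflammatory genes (chemokines, cytokines, NF-kB inhibitors, adhesion molecules and acute phase genes) and 23 interferon response genes. They were measured by RNA sequencing in primary mouse oligodendrocytes, the myelin-forming glia, grown from precursor cells for 1 day with T3, the thyroid hormone that starts their differentiation. The genotype given for the 2 controls names both lncOL1+/+ and lncOL1+/- without assigning either to a sample, and the 2 knockout samples are lncOL1-/-, a knockout of the long noncoding RNA lncOL1. All 4 are of mixed strain background, no cytokine or interferon treatment is labelled for any of them, and the labels do not say whether the samples of a group had separate animals or cultures as their source. The p-values therefore describe the spread of these libraries, which may be technical. The knockout allele and the animals' age were not stated in the labels.

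Chemokines are secreted proteins that attract leukocytes, and cytokines such as TNF and interleukin-1 act on receptors that free the transcription factor NF-kB from its inhibitor. NF-kB then switches on adhesion molecules, acute phase proteins and its own inhibitors. Type I interferon acts through the kinases JAK1 and TYK2 on transcription factors that include STAT2 and IRF9, which bind the interferon-stimulated response element (ISRE) and switch on antiviral genes. In brain these programmes are best known from microglia and astrocytes, and oligodendrocyte lineage cells are known to respond to interferon in inflammatory disease.

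The DNA elements that define both programmes were looked up in RefSeq promoter windows (GRCm38.p6) that run from 250 bases before to 50 bases after each gene's start. Windows were found for 35 of the 46 genes. The ISRE core searched was GAAA, any 2 bases and GAAA again, on both strands, and the NF-kB element was the kappa B consensus, also on both strands, with a place matched on both strands counted once. At least 1 ISRE core lay in a window of 11 of 18 interferon genes (61.1%) and 2 of 17 inflammatory genes (11.8%), against 3.99% of all 27025 genes with a window. The kappa B consensus lay in a window of 6 of the 17 inflammatory genes (35.3%) and 3 of the 18 interferon genes (16.7%), against 9.55% of all genes. In 0 of the member windows did the elements share a base. Windows of 4 genes are shown because they carry the element of their programme and differ widely in level. They are Nfkbia (kappa B consensus, minus strand, chr12:55492598-55492897), Stat2 (ISRE core, plus strand, chr10:128270248-128270547), Isg15 (ISRE core, minus strand, chr4:156200769-156201068) and Ifit1 (ISRE core, plus strand, chr19:34640639-34640938). Each is written 5′ to 3′ on the gene's strand, with the element in capitals.
Nfkbia: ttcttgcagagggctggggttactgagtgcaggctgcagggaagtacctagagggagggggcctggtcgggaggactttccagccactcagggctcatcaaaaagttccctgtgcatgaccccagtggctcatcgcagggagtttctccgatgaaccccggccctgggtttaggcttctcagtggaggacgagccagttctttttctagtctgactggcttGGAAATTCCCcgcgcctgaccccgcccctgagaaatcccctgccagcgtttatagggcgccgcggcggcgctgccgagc
Stat2: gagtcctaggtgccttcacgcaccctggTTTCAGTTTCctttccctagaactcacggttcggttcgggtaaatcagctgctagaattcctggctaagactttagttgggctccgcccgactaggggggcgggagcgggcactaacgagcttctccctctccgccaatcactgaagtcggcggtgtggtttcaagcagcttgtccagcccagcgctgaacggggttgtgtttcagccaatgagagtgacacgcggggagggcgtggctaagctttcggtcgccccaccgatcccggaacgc
Isg15: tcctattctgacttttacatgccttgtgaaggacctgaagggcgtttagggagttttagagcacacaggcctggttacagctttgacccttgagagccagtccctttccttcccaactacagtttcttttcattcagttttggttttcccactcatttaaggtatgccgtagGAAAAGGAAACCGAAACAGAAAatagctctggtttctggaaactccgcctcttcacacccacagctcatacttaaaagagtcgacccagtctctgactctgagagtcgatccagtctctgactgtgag
Ifit1: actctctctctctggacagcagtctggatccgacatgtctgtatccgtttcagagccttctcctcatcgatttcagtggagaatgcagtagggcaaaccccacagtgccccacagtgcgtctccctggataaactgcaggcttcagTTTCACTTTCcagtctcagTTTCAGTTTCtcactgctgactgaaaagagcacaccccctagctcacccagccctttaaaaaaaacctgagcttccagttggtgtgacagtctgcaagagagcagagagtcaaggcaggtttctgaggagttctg
The capitals begin 29 bases before the gene start in Nfkbia and 222 bases before it in Stat2. Ifit1 holds 2 places, 104 and 85 bases before the start. Isg15 holds 3 places, 78, 72 and 66 bases before the start, of which neighbouring ones overlap. A match is a run of letters and not a shown binding site.

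Most of these genes were barely expressed. FPKM, the number of sequenced fragments scaled to transcript length and library size, averaged at least 1 over the 4 samples for 10 of the 46 (21.7%), against 48.5% of all gene symbols with usable values. Another 32 were above 0 with a mean under 1 FPKM, and 4 were listed at 0 in every sample, which were Ccl7, Ccl12, Cxcl2 and Il6. The median of the 42 genes above 0 was 0.295 FPKM, and that of all 17397 genes above 0 was 4.13 FPKM. The highest means were 8.36 FPKM for Nfkbia, 8.10 for Stat2 and 6.99 for Vcam1. The name of the group says what the genes are known for, and most were at low levels in all 4 samples. Of the 11 interferon genes with an ISRE core in the window, 9 had a mean under 1 FPKM, with a range from 0.0139 to 8.10 FPKM, and of the 7 without one 5 did.

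**Figure D1:**
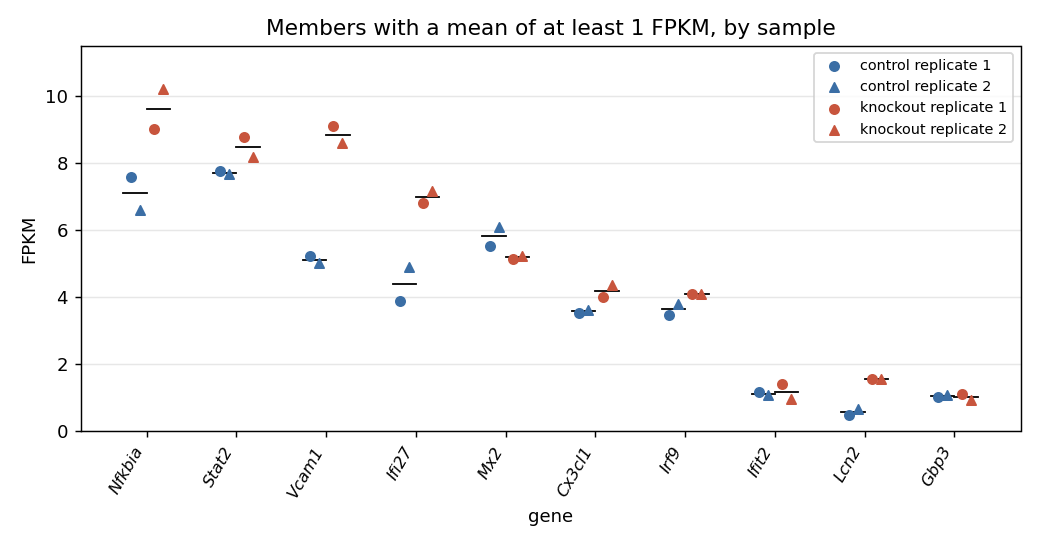
FPKM in each sample of the 10 genes that averaged 1 FPKM or more, with controls in blue, knockouts in red and a bar at each group's mean of 2 samples. The 2 knockout samples lie above both controls for Vcam1, Lcn2, Ifi27, Nfkbia, Stat2, Cx3cl1 and Irf9, and below them for Mx2.

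Among the series as a whole, summed FPKM ranged from 373484 to 383128 per library, the files hold no read counts, and relative depths estimated from low values ranged from 0.93 to 1.17 times that of control replicate 1. Markers of oligodendrocytes summed to 7865 to 8859 FPKM per library with all 11 above 1 FPKM on average, those of precursors to 521 to 571 FPKM, and those of astrocytes to 522 to 578 FPKM, so the labelled cell type's markers were the most abundant and astrocyte markers were present. Neuron markers summed to 29.4 to 30.7 FPKM and lymphocyte markers to 0 to 0.141. lncOL1, listed as 9630013A20Rik, was at 28.9 and 34.0 FPKM in the controls and 5.54 and 5.06 in the knockouts, so it was lower there but still detected. Microglia and macrophage markers moved with genotype: the 20 listed summed to 17.1 and 19.0 FPKM in the controls and 36.8 and 41.6 in the knockouts. Of the 20, 16 were higher in both knockouts than in both controls and 0 lower. The shares were 22.6% and 20.7% over all genes averaging at least 1 FPKM, and 20.6% and 12.4% over lower genes above 0. In bulk samples such as these, more cells of a type and more RNA per cell cannot be told apart. Within the microglia and macrophage list Fcrls was the highest, at 2.47 and 2.96 FPKM in the controls and 7.24 and 7.12 in the knockouts. Other microglia markers were low, with Tmem119 at 0.0596 and 0.0921 FPKM in the controls and 0.252 and 0.291 in the knockouts. P2ry12 was at 0.158, 0.0856, 0.0490 and 0.178 in the same order, and its groups overlapped.

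**Figure D2:**
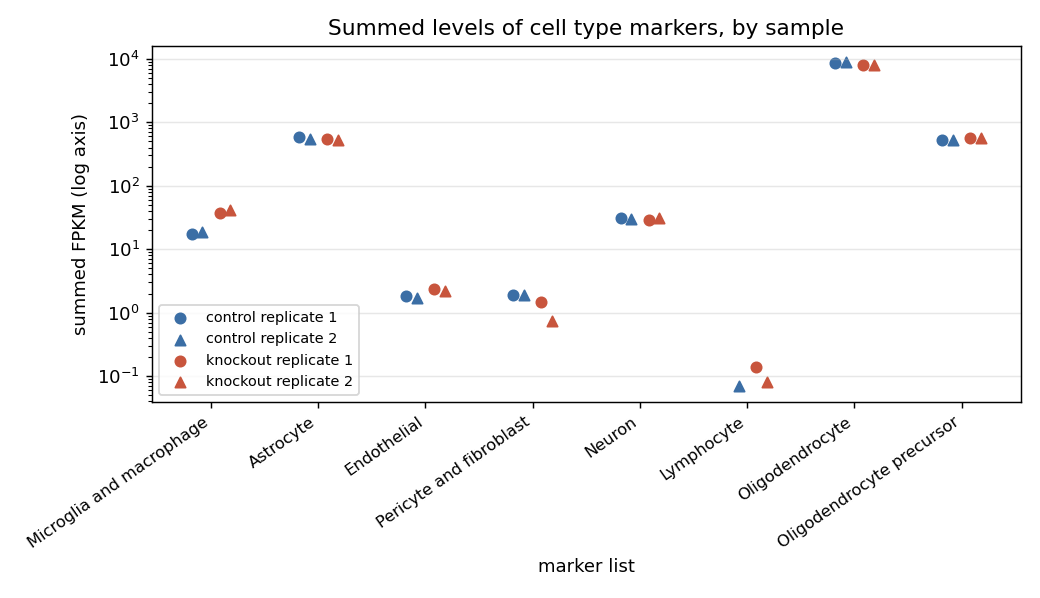
Summed FPKM of each list of cell type markers in each sample, on a log axis, with controls in blue and knockouts in red; a sum of 0 (lymphocyte markers in control replicate 1) is not drawn. Microglia and macrophage markers stand at 17.1 and 19.0 FPKM in the controls and 36.8 and 41.6 in the knockouts.

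Differences between genotypes were tested with limma on log2(FPKM + 1) over the 11361 genes whose mean reached 1 FPKM. Of the 10 response genes tested, 2 rose in the knockout, Vcam1 and Lcn2, 0 fell and 8 did not pass, where 0.528% of all genes tested were called higher and 0.783% lower. The unadjusted p was under 0.05 for 4 higher and 0 lower genes, against 7.13% and 6.58% of all genes tested. The fitted difference was above 0 for 8 of the 10, against 51.4% of all genes, with a median of 0.16 on the log2 scale against 0.005. Lcn2 passed the filter only through the knockout, where it is high, so these counts over the tested genes are a description. The same 10 genes split by programme gave 2 higher, 0 lower and a median difference of 0.54 over the 4 inflammatory genes, and 0 higher, 0 lower and a median of 0.07 over the 6 interferon genes. The difference between the programmes was not tested.

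**Figure D3:**
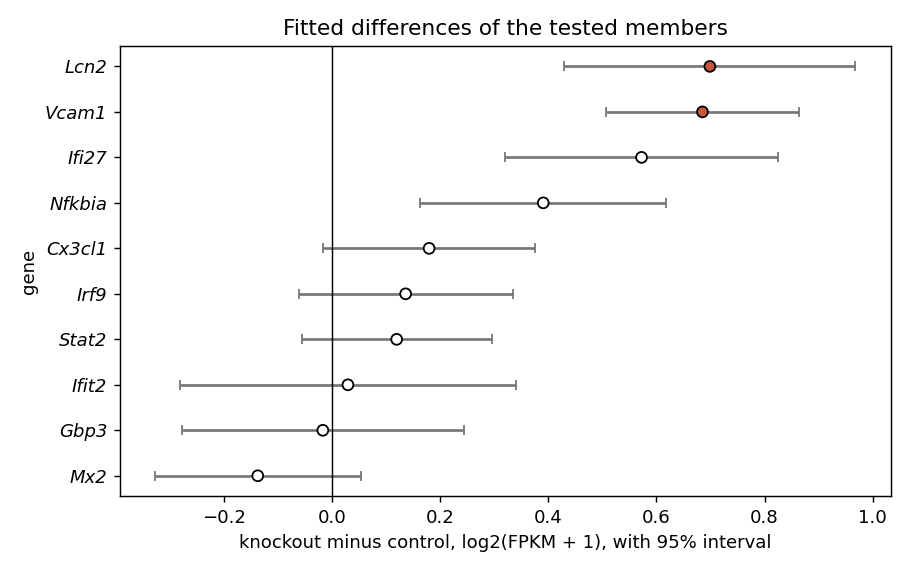
Fitted difference of knockout minus control on the log2(FPKM + 1) scale for the 10 tested genes, with bars for the 95% interval and filled points for genes called by limma. On this scale, which compresses low genes, Lcn2 and Vcam1 stand highest at 0.70 and 0.69, and Mx2 lowest at -0.14.

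Vcam1 was the clearest difference. It encodes vascular cell adhesion molecule 1, which binds integrins on leukocytes, and it lies on chromosome 3 from 116110020 to 116129688 (mm10). It was at 5.23 and 5.02 FPKM in the controls and at 9.11 and 8.60 in the knockouts. Both knockout samples lay well above both controls. The group means were 5.13 ± 0.145 and 8.85 ± 0.364 FPKM (SD, n = 2 each), a ratio of 1.73, with a log2 difference of 0.69 (SE 0.0744, 95% interval 0.51 to 0.86, limma adjusted p = 0.0122). The call was lost when any 1 library was left out, with a limma adjusted p of 0.112 and 0.117 for control replicates 1 and 2 and 0.144 for either knockout replicate. Each omission leaves fewer residual degrees of freedom. In the authors' deposited table its pooled values were 5.95 and 10.1 FPKM, the log2 fold change 0.77 and q = 9.33e-10. An annotated antisense gene, Gm43109, overlaps its exons, and no strand setting for the counting was found in the labels. Reads of the 2 genes therefore cannot be told apart where they overlap, and the extent of the overlap was not measured. The same holds for 9 low members with an opposite-strand exon overlap in the annotation searched, Cxcl10, Cxcl16, Il1a, Il1b, Icam1, Irf7, Usp18, Ifi35 and Gbp2. Of other cells known to carry VCAM1, endothelial markers summed to 1.82 and 1.71 FPKM in the controls against 2.38 and 2.21 in the knockouts, and pericyte and fibroblast markers to 1.93 and 1.87 against 1.46 and 0.742. Of the 9 endothelial markers 2 were higher and 0 lower in both knockouts, and 6 averaged under 0.1 FPKM. The 2 higher ones were Vwf, at 0.985 and 0.810 FPKM against 1.30 and 1.33, and Tek, which did not exceed 0.0110 FPKM. Emcn was listed at 0 in every library. The shares over all genes above 0 with a mean under 1 FPKM were 20.6% and 12.4%, and over tested genes 22.6% and 20.7%. Of the 8 pericyte and fibroblast markers 0 were higher and 6 lower, against the same shares, and 1, Kcnj8, was listed at 0. The part of these cells, and of the microglia and astrocyte markers above, in the Vcam1 difference was not tested. Icam1, the related adhesion molecule, was at 0.294 and 0.235 FPKM in the controls against 0.288 and 0.474 in the knockouts, and the groups overlapped.

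Lcn2 rose from a lower level, and passed the filter of 1 FPKM only through its knockout values. It encodes lipocalin 2, an iron-siderophore binding protein secreted in inflammation and known as a marker of reactive astrocytes, and spans 32384637 to 32387739 of chromosome 2. It was at 0.495 and 0.665 FPKM in the controls and at 1.56 in both knockouts, with no overlap. The group means were 0.580 ± 0.120 and 1.56 ± 0.00318 FPKM (SD, n = 2 each), with a log2 difference of 0.70 (SE 0.113, 95% interval 0.43 to 0.97, limma adjusted p = 0.0456). The ratio of means was 2.69, and the log2 difference with a pseudocount of 0.1 FPKM was 1.30, since a pseudocount of 1 compresses so low a gene. With the filter at 0.1 FPKM, which both groups exceed, the limma adjusted p was 0.0358, and with no filter it was 0.0873. This call is close to the threshold: the limma adjusted p was 0.0510 after quantile normalization and 0.0623 with a pseudocount of 0.1 FPKM. It was 0.171 and 0.0986 when the first or second control was left out, and 0.198 and 0.236 when the first or second knockout was. The authors' deposited table gives q = 0.162. Of the 10 astrocyte markers, of which 8 were tested, 2 were higher and 4 lower in both knockouts than in both controls. The shares were 22.6% and 20.7% over all tested genes, and 20.6% and 12.4% over lower genes above 0. The sums of these markers were 578 and 547 FPKM against 542 and 522, and their part in the Lcn2 values was not tested. The other acute phase and prostaglandin genes were under the filter. Ptgs2, which encodes the inducible cyclooxygenase, was at 0.531 and 0.603 FPKM in the controls against 0.900 and 0.826 in the knockouts, and Saa3, a serum amyloid A gene, was at 0.463 and 0.237 against 0.792 and 0.723. Both knockout samples were above both controls for each.

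Of the 2 response genes that encode NF-kB inhibitors, Nfkbia and Tnfaip3, both had higher values in both knockouts than in both controls. So did 22.6% of all tested genes and 20.6% of lower genes above 0. Nfkbia did not pass the test and Tnfaip3 was under the filter. Nfkbia encodes IkB alpha, which holds NF-kB in the cytoplasm and is itself induced by NF-kB. It was at 7.59 and 6.62 FPKM in the controls and 9.01 and 10.2 in the knockouts, which do not overlap, with a log2 difference of 0.39 (SE 0.0952, 95% interval 0.16 to 0.62, limma adjusted p = 0.130). Tnfaip3, which encodes the ubiquitin-editing enzyme A20, was far lower, at 0.0908 and 0.0656 FPKM against 0.386 and 0.144. Its groups did not overlap either, though the knockout samples differed from each other more than the controls did.

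Of the chemokine genes, only Cx3cl1 was above 1 FPKM on average. Cx3cl1 encodes fractalkine, a membrane-bound chemokine known mainly from neurons, whose receptor CX3CR1 marks microglia. It was at 3.55 and 3.61 FPKM in the controls and 4.02 and 4.37 in the knockouts, which lie just above them, with a log2 difference of 0.18 (SE 0.0821, 95% interval -0.02 to 0.38, limma adjusted p = 0.411). Its receptor gene Cx3cr1 was at 0.377 and 0.208 FPKM in the controls against 0.572 and 0.739 in the knockouts, under the filter. The authors' deposited table calls it higher (log2 fold change 1.14, q = 0.0229).

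The CC chemokine genes lie in 2 clusters on chromosome 11, with Ccl2, Ccl7 and Ccl12 between 82035577 and 82103399 and Ccl5, Ccl3 and Ccl4 between 83525779 and 83664683. In RefSeq, Ccl4 (plus strand) starts at 83648624, within the span of Ccl3 (minus strand). Whether their RefSeq exons overlap was not examined. Ccl3, which encodes the monocyte attractant MIP-1 alpha, was at 0.185 and 0.504 FPKM in the controls and 0.719 and 1.32 in the knockouts. The knockout values were higher in both samples, but each group was widely spread. Ccl5, known as RANTES, was at 0.634 and 0.728 FPKM against 0.864 and 0.750. Ccl4, the neighbour of Ccl3, was at 0.210 and 0 FPKM in the controls against 0 and 0.216 in the knockouts and so did not separate the groups, and neither did the monocyte attractant gene Ccl2, between 0.0873 and 0.290 FPKM. Among the CXC genes, Cxcl16, Cxcl12, Cxcl1 and Cxcl10 stayed between 0 and 0.363 FPKM in every sample, and only Cxcl12, which encodes the ligand of CXCR4, had both knockouts (0.0862 and 0.0973 FPKM) above both controls (0.0504 and 0.0582). Cxcl10, an interferon-induced chemokine, was listed at 0 in 3 libraries and at 0.0524 in knockout replicate 2.

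The 4 cytokine genes had means under 0.1 FPKM. Tnf, which encodes tumour necrosis factor, was at 0.0360 and 0.0299 FPKM in the controls and 0.193 and 0.130 in the knockouts, a ratio of means of 4.90 between very low levels. Il1a was at 0 and 0.0476 FPKM against 0.114 and 0.0899, and both knockout samples were above both controls for these genes. Il1b was above 0 in knockout replicate 1 alone, at 0.0441 FPKM, and Il6 in no sample. The files give no number of fragments behind these values, so their counting error is unknown.

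Of the 15 inflammatory genes above 0 with a mean under 1 FPKM, both knockouts were above both controls for 8 (53.3%) and below for 0. Over all 6036 such genes of the series the shares were 20.6% higher and 12.4% lower. For the 10 tested response genes the groups did not overlap in 8, with 7 higher and 1 lower, against 22.6% and 20.7% of all tested genes. The summed microglia and macrophage markers were 2.17 times as high in the knockouts. Of the 9 tested, limma called 3 higher, against 0.528% of all genes tested. These were Fcrls, Laptm5 and Tyrobp (limma adjusted p = 0.00489, 0.0101 and 0.0119). The authors' deposited table calls Fcrls, Laptm5, Ctss, Aif1 and Cx3cr1 higher, against 1.74% of its tested rows, but not Tyrobp (q = 0.134). Microglia are known to express Ccl3, Tnf and Il1a, and the part of these markers in the inflammatory values was not tested.

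**Figure D4:**
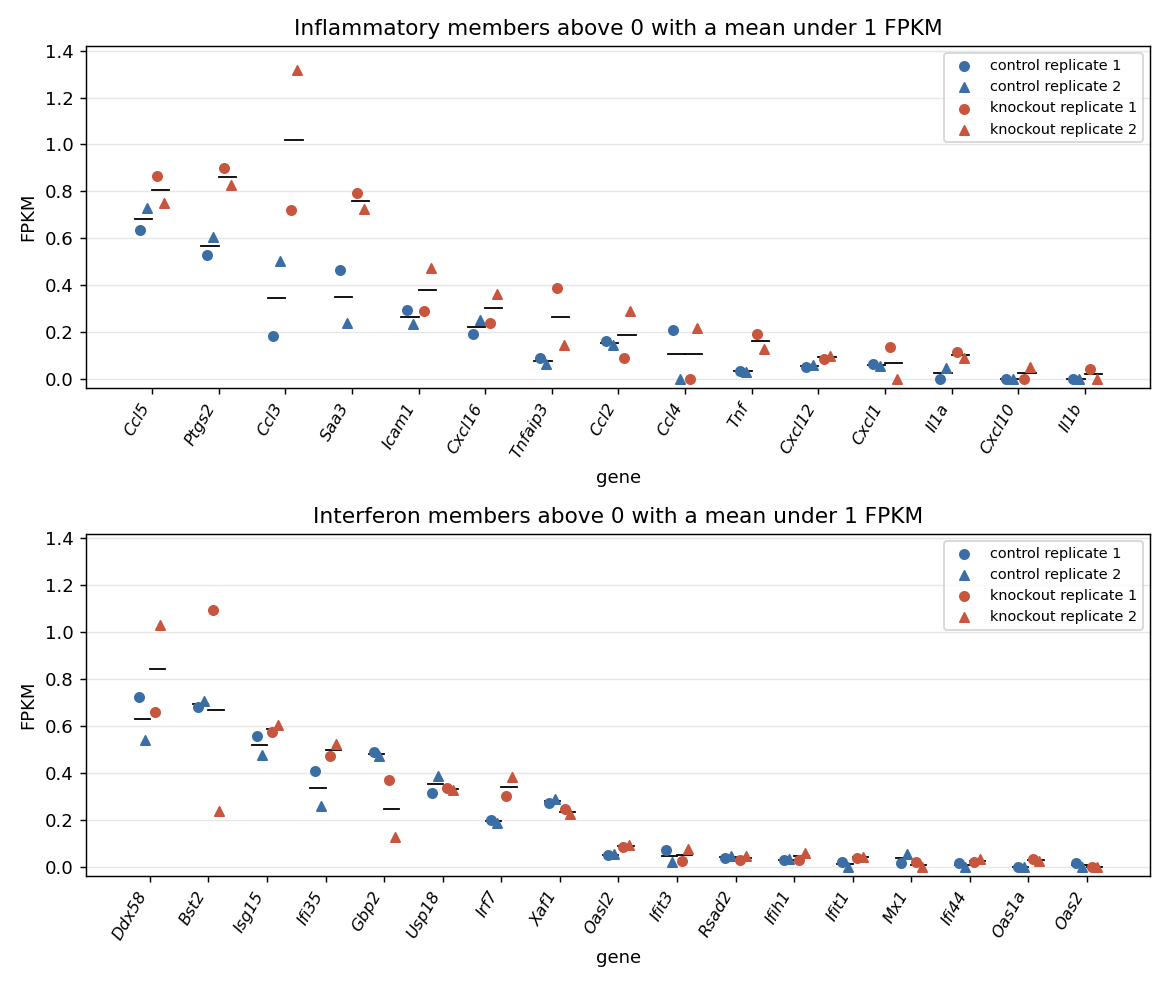
FPKM of the 32 genes above 0 with a mean under 1 FPKM in each sample, inflammatory genes in the upper panel and interferon genes in the lower one, with controls in blue, knockouts in red and a bar at each group's mean. Ccl3 in knockout replicate 2 (1.32) and Bst2 in knockout replicate 1 (1.09) are the highest single values, and many genes lie close to 0 in all samples.

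Genes of the interferon signal transducers were expressed, and neither of those tested passed. Stat2, which encodes the transcription factor STAT2, was at 7.77 and 7.67 FPKM in the controls and 8.78 and 8.18 in the knockouts, with a log2 difference of 0.12 (SE 0.0734, 95% interval -0.06 to 0.30, limma adjusted p = 0.558). Irf9, which encodes the DNA-binding partner of STAT2, was at 3.47 and 3.82 FPKM against 4.10 in both knockouts, with a log2 difference of 0.14 (95% interval -0.06 to 0.33, limma adjusted p = 0.553). Both knockouts were above both controls for each gene. Irf9 shares exon sequence on the same strand with Rnf31 in the annotation, so part of its reads may be counted with either gene. Irf7, the interferon-induced factor that amplifies the response, was at 0.201 and 0.186 FPKM against 0.301 and 0.381, higher in both knockouts, and Isg15, the ubiquitin-like modifier, was at 0.556 and 0.478 against 0.572 and 0.603. Usp18, which removes ISG15 and restrains the receptor, stayed between 0.316 and 0.385 FPKM in all 4 samples.

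The RNA sensors were low and the groups overlapped. Ddx58, which encodes RIG-I, ranged from 0.539 to 1.03 FPKM over the samples, and Ifih1, which encodes MDA5, from 0.0274 to 0.0586.

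Among the 16 interferon effectors, Ifi27 and Mx2 made up most of the summed level. Ifi27, a small interferon-induced membrane protein gene at 103434189 to 103440245 of chromosome 12, was at 3.89 and 4.90 FPKM in the controls and 6.80 and 7.17 in the knockouts. The knockouts lay above both controls. Its log2 difference was 0.57 (SE 0.105, 95% interval 0.32 to 0.82), which missed the threshold (limma adjusted p = 0.0660), and it was called with a pseudocount of 0.1 FPKM (limma adjusted p = 0.0474). The authors' deposited table, which lists the same locus as Ifi27l1, gives q = 0.397. Mx2, an antiviral GTPase gene, was at 5.54 and 6.09 FPKM in the controls and 5.14 and 5.25 in the knockouts, both slightly lower, with a log2 difference of -0.14 (95% interval -0.33 to 0.05, limma adjusted p = 0.526). Its paralog Mx1 did not exceed 0.0536 FPKM in any sample.

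Ifit2 and Gbp3 showed no separation of the groups. Ifit2, which encodes an RNA-binding antiviral protein, was at 1.16 and 1.10 FPKM against 1.41 and 0.964, with a log2 difference of 0.03 (95% interval -0.28 to 0.34, limma adjusted p = 0.960). Gbp3, a guanylate-binding protein gene, was at 1.03 and 1.09 FPKM against 1.12 and 0.952, with a log2 difference of -0.02 (95% interval -0.28 to 0.24, limma adjusted p = 0.972). Gbp2 was lower in both knockouts, at 0.491 and 0.470 FPKM against 0.367 and 0.125, and so was Xaf1, at 0.270 and 0.287 against 0.244 and 0.223. Bst2, which encodes tetherin, was at 0.679 and 0.704 FPKM in the controls and at 1.09 and 0.239 in the knockouts, which lie on either side of them. Ifi35 was higher in both knockouts, at 0.409 and 0.260 FPKM against 0.471 and 0.523.

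Among the interferon effectors, Ifit1, Ifit3, Oas1a, Oas2, Oasl2, Rsad2, Mx1 and Ifi44 had means under 0.1 FPKM over the 4 samples. Oas1a, which encodes an oligoadenylate synthetase, was listed at 0 in both controls and at 0.0306 and 0.0249 in the knockouts, and Oasl2 was at 0.0477 and 0.0517 against 0.0837 and 0.0930. Rsad2, which encodes viperin, was between 0.0273 and 0.0440 FPKM and overlapped between groups. Ifit3 has a near-identical neighbour, Ifit3b, and the Oas1 genes are close copies of each other, so reads of these genes may be split between copies. Of the 17 interferon genes above 0 with a mean under 1 FPKM, 7 (41.2%) were higher in both knockouts and 2 (11.8%) lower, against the same 20.6% and 12.4% of all such genes. Oas1a is among the 7 and is above 0 only in the knockouts, so this count is a description. Ifit1 and Ifi44, also among the 7, did not exceed 0.0416 FPKM and were listed at 0 in 1 control.

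When the filter was lowered to a mean of 0.1 FPKM with a pseudocount of 0.1, 27 response genes were tested, and 2 rose, again Vcam1 and Lcn2, against 0.410% of all genes called higher and 0.516% called lower. An unadjusted p under 0.05 was reached by 7, all higher, against 7.57% of all genes in that direction. These were Vcam1, Lcn2, Ifi27, Nfkbia, Saa3, Ccl3 and Ptgs2. Under this setting Ccl3 had a log2 difference of 1.38 (limma adjusted p = 0.230), Saa3 of 0.98 (limma adjusted p = 0.217), and Ptgs2 of 0.53 (limma adjusted p = 0.285).

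The authors' deposited table has a row for each of the 46 genes, of which 19 were tested there and 1 was called, Vcam1, against 1.74% of its tested rows called higher and 4.04% called lower. Its log2 fold change for Ccl3 was 1.505 (q = 0.482) and for Gbp2 -0.96 (q = 0.346), from pooled values.

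The receptors and signalling genes of the same pathways were in part well expressed, and limma called 0 in each of 5 lists, where 0.528% of all genes tested were called higher and 0.783% lower. The counts at an unadjusted p under 0.05 that follow stand against 7.13% of all genes higher and 6.58% lower, and with 3 to 21 genes tested a list they are small numbers. The genes of interferon ligands, Ifnb1, Ifng, Ifna1, Ifna2 and Ifna4, were listed at 0 in every sample. Of 14 tested genes of interferon receptors and signalling, limma called 0 in either direction. At an unadjusted p under 0.05, 2 were higher and 0 lower, and the median difference was 0.01. Stat3 ranged from 82.3 to 85.0 FPKM, and Jak1, Jak2 and Ifnar2, which encode kinases and a chain of the type I interferon receptor, from 15.7 to 19.6. Ifngr2, a chain of the interferon gamma receptor, was at 7.21 and 8.04 FPKM against 9.42 and 10.01 (limma adjusted p = 0.153), and Socs3, a feedback inhibitor of cytokine signalling, at 15.1 and 13.7 against 17.2 and 18.6 (limma adjusted p = 0.175).

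Further interferon-stimulated genes repeated the low levels, with 12 of 45 above 1 FPKM on average. Of these 12, limma called 0 in either direction; the unadjusted p was under 0.05 for 2 higher and 1 lower, and the median difference was 0.08. Ifitm3, which encodes a membrane protein that blocks viral entry, was at 8.97 and 9.44 FPKM in the controls against 11.8 and 14.8 in the knockouts (log2 difference 0.48, limma adjusted p = 0.110). Its neighbour Ifitm2 had lower values in both knockouts, at 3.28 and 4.595 FPKM against 2.72 and 2.66 (log2 difference -0.41, limma adjusted p = 0.248). Adar, Shisa5 and Irgm1 had log2 differences of -0.02, 0.08 and 0.22.

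Of 21 tested genes of NF-kB and cytokine receptor signalling, limma called 0 in either direction; the unadjusted p was under 0.05 for 3 higher and 1 lower, and the median difference was 0.07. Tnfrsf1a, which encodes the main TNF receptor, was at 25.3 and 25.1 FPKM against 30.6 and 32.8 (log2 difference 0.32, limma adjusted p = 0.108). Nfkbiz, an NF-kB-induced regulator, was at 1.08 and 1.18 FPKM against 1.70 and 1.999 (log2 difference 0.42, limma adjusted p = 0.151). Il1rap, the accessory chain of the interleukin-1 receptor, was lower in both knockouts, at 31.9 and 35.4 FPKM against 29.4 and 27.1 (log2 difference -0.25, limma adjusted p = 0.259), and the authors' deposited table calls it lower (log2 fold change -0.29, q = 0.0111). Nfkbib and Il6st had log2 differences of 0.16 and 0.02.

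Among the 9 tested sensing genes limma called 0 in either direction, the unadjusted p was under 0.05 for 0 of them, and the median difference was 0.01. Irak1, Mavs, Tbk1 and Traf6, the adaptors and kinases of this group, were between 10.7 and 15.3 FPKM in every sample, and the smallest p was that of Tirap (log2 difference -0.24, limma adjusted p = 0.390). Of 13 chemokine receptor genes 3 were tested and 0 called by limma, although all 3 had an unadjusted p under 0.05 with higher values, with a median difference of 0.42. Cxcr4, the receptor of CXCL12, was at 3.40 and 3.74 FPKM against 4.98 and 5.50 (log2 difference 0.45, limma adjusted p = 0.0755). Ackr3, an atypical receptor of the same ligand, was at 1.47 and 1.28 FPKM against 1.93 and 2.43 (limma adjusted p = 0.182), and Darc, an atypical receptor of many chemokines, at 19.0 and 19.1 against 21.1 and 25.1 (limma adjusted p = 0.287). The leukocyte receptor genes Ccr1, Ccr2 and Ccr3 were listed at 0 in every sample.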

How the data were processed

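RNA sequencing of 2 control and 2 knockout samples was analysed from the gene-level FPKM that the authors deposited, 1 table per sample with a status per row, per the file headers. CASAVA, TopHat, Cufflinks, Cuffdiff and mm10 are named in the submitters' processing notes, with versions, roles, annotation and strand setting not given in the sources used here. Libraries were made with the TruSeq RNA kit, per the labels' protocols. A further table that the authors deposited holds their Cuffdiff comparison, with pooled FPKM, log2 fold change, p-value and q-value. Its values are quoted as the authors' own.

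Rows of the same symbol were summed (258 symbols), and 9 symbols whose status was not OK were dropped. As FPKM hold no counts, no count model was fitted. Genes averaging 1 FPKM or more were fitted as log2(FPKM + 1) with limma 3.58.1 in R 4.3.3 (eBayes with trend, no covariate, 2 residual and 4.6 prior degrees of freedom), with Benjamini-Hochberg adjustment over all 11361 genes and a threshold of 0.05. This scale understates changes of low genes. The code was tested on simulated data. All 46 genes are accounted for. Differences are given for those tested, and of each pathway list the called, the 4 most abundant and the 2 with the smallest p are named; other single values, of low members and of marker genes, were chosen after being seen. Members, lists and alternatives were chosen with earlier results of these data known. List genes were matched by symbol or RefSeq synonym.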

Additional observations from a re-analysis of the deposited data

How the results depend on the processing

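Of the 120 values of single genes under alternatives, 103 kept their direction and their side of the threshold, 12 lost the call, 2 gained it and 3 reversed. The calls lost were those of Vcam1 and Lcn2, and the call gained was that of Ifi27, with a pseudocount of 0.1 FPKM and with the replicate number as a block. With no filter on low values 0 response genes were called (limma adjusted p = 0.0829 for Vcam1 and 0.0873 for Lcn2), with 1 gene higher and 3 lower in all. A positive difference was found for 33 of 42, against 53.1% of all genes. Oas1a, Il1b and Cxcl10 were at 0 in both controls and entered only through the knockouts, and Oas2 only through a control. With a filter of 0.1 FPKM, at either pseudocount, 21 of 27 had a positive difference, against 52.6% of all genes, and more genes were tested. Tnfaip3 passed this filter only through the knockouts, so these counts are a description. Quantile normalization left 1 response gene called higher, Vcam1. With each library left out in turn, which leaves fewer degrees of freedom and assumes that the lone sample varies like the other group, the counts were 11 to 16 higher and 5 to 26 lower over all genes and 0 in each case among response genes. Across these the difference of Ifit2 ran from -0.12 to 0.18 and that of Gbp3 from -0.077 to 0.043, so their signs are not settled.

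The labels do not say whether the replicate numbers pair the samples. The difference between replicates 1 and 2 correlated at r = -0.052 across genes between the groups, which with 2 samples a group cannot settle it. With the replicate number as a block, 158 genes were higher and 183 lower, against 60 and 89 without it. Of the response genes 3 were then higher (Ifi27, limma adjusted p = 0.0118, joined Vcam1 and Lcn2). The number of fragments is not given, so the counting error of the genes under 1 FPKM is unknown, and with 2 samples a group an exact permutation test of a single gene could not pass 0.05.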
